A study of Mus musculus with 3 samples.

Results

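The genes described here make and load MHC class I, the surface complex through which a cell shows fragments of its own proteins to CD8 T cells. They were chosen by symbol, as all probe sets that the platform annotation assigns to H2-K1, H2-D1, B2m, Tap1, Tap2, Tapbp, Psmb8, Psmb9, Nlrc5 or Erap1 and to no other gene. This gave 28 probe sets for 10 genes, of 34958 probe sets with 1 symbol for 18194 genes in all. The cells were CT26.WT, a mouse colon carcinoma line bought from a cell bank and grown in culture. All cultures were first kept for 12 h in medium without serum. One then received 4 µg/ml of recombinant mouse S100a8 for 24 h, and another 4 µg/ml of recombinant mouse S100a9 for 24 h. The control received no S100 protein. Its title names BSA, but saline is named by its description and by the series design, and its labels give no further time or amount. S100a8 and S100a9 are calcium-binding proteins that neutrophils and monocytes release during inflammation. Total RNA was measured on Affymetrix mouse expression arrays, with 1 array per culture. Each group thus has 1 array, there are no replicates, and no difference below has a replicate check or a p-value.

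Class I presentation runs in steps. The proteasome cuts proteins into peptides, and in cells exposed to interferon the subunits encoded by Psmb8 and Psmb9 replace the standard catalytic ones to form the immunoproteasome. The transporter made of Tap1 and Tap2 carries the peptides into the endoplasmic reticulum, where Erap1 trims them and tapasin (Tapbp) helps to place them in the groove of a heavy chain such as H2-K1 or H2-D1. Beta-2 microglobulin, the product of B2m, is the light chain that every classical class I molecule needs. Nlrc5 is a transactivator that binds no DNA by itself and acts through factors seated on the X and Y boxes of class I promoters. In the mouse genome Psmb9, Tap1, Psmb8 and Tap2 are direct neighbours inside the MHC, in this order among protein-coding genes of chromosome 17 in RefSeq.

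Of the 10 genes, 8 matched the RefSeq promoter table of build GRCm38.p6, in which a window holds 250 bases before and 50 after the annotated start. Tap2 and Nlrc5 had no entry. The windows below are those of the heavy chains, the light chain, the shared Tap1 and Psmb9 region and Erap1. They were picked with the ratios to control known. The heavy chains, Tap1 and Psmb9 were lower than control, B2m was level and Erap1 was higher. Any link between the letters of a window and these directions was not tested. Capitals mark matches on either strand to the letters GGGNNTTCC (kappaB, bound by NF-kB), GAAANNGAA (interferon-stimulated response element), TTCNNNGAA (gamma-activated site), TGACG (part of the X2 box) and ATTGG (the CCAAT core of the Y box). The sequences are those of the reference strain C57BL/6J. CT26 cells come from a BALB/c mouse, whose class I alleles differ. H2-K1 is at chr17:34000298-34000597 on the minus strand, H2-D1 at chr17:35262844-35263143 on the plus strand, B2m at chr2:122147437-122147736 on the plus strand, Tap1 at chr17:34187306-34187605 on the plus strand and Erap1 at chr13:74639603-74639902 on the plus strand.
H2-K1: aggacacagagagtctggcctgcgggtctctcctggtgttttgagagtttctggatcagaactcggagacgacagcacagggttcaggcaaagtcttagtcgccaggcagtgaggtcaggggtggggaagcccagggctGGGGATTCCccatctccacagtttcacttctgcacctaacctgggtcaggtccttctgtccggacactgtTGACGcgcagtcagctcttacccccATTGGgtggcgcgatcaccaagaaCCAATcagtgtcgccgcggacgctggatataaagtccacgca
H2-D1: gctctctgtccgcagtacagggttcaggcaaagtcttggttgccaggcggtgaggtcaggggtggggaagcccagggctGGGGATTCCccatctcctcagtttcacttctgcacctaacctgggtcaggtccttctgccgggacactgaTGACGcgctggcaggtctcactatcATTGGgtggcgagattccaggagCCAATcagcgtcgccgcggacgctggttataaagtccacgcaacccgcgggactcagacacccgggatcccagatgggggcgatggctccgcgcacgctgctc
B2m: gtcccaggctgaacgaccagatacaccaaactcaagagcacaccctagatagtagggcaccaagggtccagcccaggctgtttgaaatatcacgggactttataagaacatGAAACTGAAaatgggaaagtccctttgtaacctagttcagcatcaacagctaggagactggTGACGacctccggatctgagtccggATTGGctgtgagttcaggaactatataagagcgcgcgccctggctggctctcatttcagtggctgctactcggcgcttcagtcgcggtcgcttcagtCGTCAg
Tap1: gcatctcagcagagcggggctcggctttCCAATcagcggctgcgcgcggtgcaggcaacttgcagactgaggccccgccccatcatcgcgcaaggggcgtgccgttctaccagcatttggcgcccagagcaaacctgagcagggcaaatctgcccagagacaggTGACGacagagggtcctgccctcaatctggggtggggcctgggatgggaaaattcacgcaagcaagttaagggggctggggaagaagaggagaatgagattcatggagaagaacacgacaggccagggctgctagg
Erap1: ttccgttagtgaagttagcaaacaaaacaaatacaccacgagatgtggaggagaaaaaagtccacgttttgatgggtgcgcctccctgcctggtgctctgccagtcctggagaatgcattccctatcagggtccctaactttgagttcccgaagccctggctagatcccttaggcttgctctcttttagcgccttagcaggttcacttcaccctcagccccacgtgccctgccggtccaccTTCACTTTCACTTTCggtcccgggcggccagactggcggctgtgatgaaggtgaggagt

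The 2 heavy chain windows held the same 3 kinds of match, kappaB, X2 box and Y box, in the same order from far to near. Neither matched the interferon-stimulated response element letters used, which does not show that they lack such an element. Their longest identical run was 47 bases, from position -141 to -95 of H2-K1 and from -201 to -155 of H2-D1, and it includes the kappaB match. For H2-K1 the upstream one of 2 annotated starts is shown. The B2m window held an interferon-stimulated response element match (GAAACTGAA, -139 to -131) beside its X2 and Y box matches and no match to the kappaB letters used. The windows of Tap1 and Psmb9 share 275 bases, because these genes are read in opposite directions from starts 226 bases apart, and both windows hold the same X2 and Y box matches. In the Tap1 window the Y box match lies at -222 to -218 and the X2 box match at -86 to -82. They are thus farther apart than in the windows of H2-K1, H2-D1 and B2m. The Erap1 window held a pair of overlapping interferon-stimulated response element matches at its start, and none of the other letters. Tapbp had Y box matches and Psmb8 a gamma-activated site match (TTCCCAGAA). Over the 8 members, with 1 window per gene, 2 held kappaB, 2 the interferon-stimulated response element, 1 the gamma-activated site, 5 the X2 box and 6 the Y box. These are not independent counts, since Tap1 and Psmb9 share their matches and the kappaB matches lie in the identical run. The shares that follow count every window, also where a gene has several. Among all 32851 windows of the table, 5.82% held the kappaB letters, 8.56% the interferon-stimulated response element, 8.30% the gamma-activated site, 20.8% the X2 box and 37.4% the Y box. A match describes the letters of the window and shows no binding. Sites that depart from the letters used are not marked, so a missing match does not show a missing site.

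Values are the deposited MAS5 intensities on a linear scale. The floor, the median of all values on the 3 arrays, was 76.2, and lower values were set to it before log2 was taken. Each gene was read from its probe set with the highest mean signal and compared when that mean lay above the floor, which held for all 10 members and for 11128 genes in all. The median intensity was 78.7 (S100a8), 73.8 (S100a9) and 76.3 (control). The 3′ to 5′ ratio of Gapdh, a sign of RNA quality, was 1.01 (S100a8), 1.03 (S100a9) and 0.96 (control), and that of Actb 1.65 (S100a8), 1.56 (S100a9) and 1.44 (control). In the dimmest of 4 equal brightness classes of genes the median log2 ratio of S100a8 against control was 0.14, against -0.02 to -0.005 in the others. Psmb9 and Nlrc5 lie in that dimmest class. With whole cultures as samples, fewer cells that carry a transcript and less of it per cell cannot be told apart.

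The labelled origin of the cells was only partly matched by epithelial markers. Of 11 listed, 6 lay under the floor on each array (Cdh1, Krt8, Krt19, Cldn4, Cldn7 and Vil1), whereas the keratin gene Krt18 gave 1032 (S100a8), 1236 (S100a9) and 1447 (control). The summed epithelial signal, of which Krt18 is the largest part, was 1982 (S100a8), 2081 (S100a9) and 2295 (control). Of the 5 compared epithelial markers, 3 were above control with S100a8 (median log2 ratio 0.16) and 1 with S100a9 (-0.23). Of all compared genes, 52.5% were above control with S100a8 and 51.2% with S100a9. Of 9 measured macrophage and granulocyte markers, 4 lay under the floor on each array (Ptprc, Adgre1, Itgam and Fcgr1). The other 5 were compared, and 4 of them were above control with S100a8 (median log2 ratio 0.47) and 5 with S100a9 (0.45). The lysosomal gene Cd68 had 422 (S100a8), 396 (S100a9) and 273 (control). Cd14, the brightest of the list, had 1075 (S100a8), 1418 (S100a9) and 1413 (control). Its log2 ratios were -0.39 with S100a8 and 0.005 with S100a9. The sum of that list was 2358 (S100a8), 2616 (S100a9) and 2340 (control). Of 8 lymphoid markers 5 lay under the floor on each array (Cd3g, Cd79a, Ms4a1, Nkg7 and Ncr1), with sums of 1162 (S100a8), 972 (S100a9) and 1027 (control). Cd3e was the largest part of these lymphoid sums. Of 7 endothelial markers 4 lay under the floor on each array (Pecam1, Cdh5, Tek and Tie1), with sums of 485 (S100a8), 425 (S100a9) and 408 (control). All 3 compared markers of either list were above control with S100a8 (median log2 ratio 0.36 for lymphoid and 0.27 for endothelial). With S100a9 2 of 3 were above control in either list (0.01 for lymphoid and 0.003 for endothelial). Of 9 fibroblast markers 3 lay under the floor on each array (Lum, Thy1 and Fap), with sums of 10874 (S100a8), 11915 (S100a9) and 12103 (control). The collagen gene Col1a2, the brightest of all listed cell type markers, was the largest part of these sums. It had 7385 (S100a8), 7839 (S100a9) and 7467 (control), log2 ratios of -0.02 with S100a8 and 0.07 with S100a9. All 6 compared fibroblast markers were below control with S100a8 (median log2 ratio -0.49) and 5 of 6 with S100a9 (-0.17). Of all compared genes, 47.5% were below control with S100a8 and 48.0% with S100a9. The part of these markers in the class I values was not tested.

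The S100a8 culture had lower signals than control for the heavy chains, for both transporter subunits, for tapasin and for Nlrc5, while the light chain gene B2m was level and Erap1 was slightly higher. The median log2 ratio of the 10 genes was -0.27, a 1.21-fold lower signal, against 0.01 for all compared genes. In all, 8 of 10 members were below control, where 47.5% of all compared genes were, and 2 were above, where 52.5% were. Psmb8, counted among the 8, was level with control and lay above it under median centring and quantile normalization. Every difference was small: 0 members were lower by at least 1.5-fold, a size reached by 1.91% of compared genes, and 0 were higher by that size (1.13% of genes).

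The S100a9 culture showed the same 8 genes below control, with a smaller median difference. The median log2 ratio was -0.17, a 1.12-fold lower signal, against 0.005 for all compared genes, and 48.0% of these were lower and 51.2% higher. Again 0 members passed 1.5-fold, a size that 0.854% of genes reached downward and 0.252% upward. Both ratios use the same control array, so any peculiarity of that array enters both. A gene below control with both proteins was not rare, since 33.7% of compared genes were, against 8 of the 10 members.

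**Figure D1:**
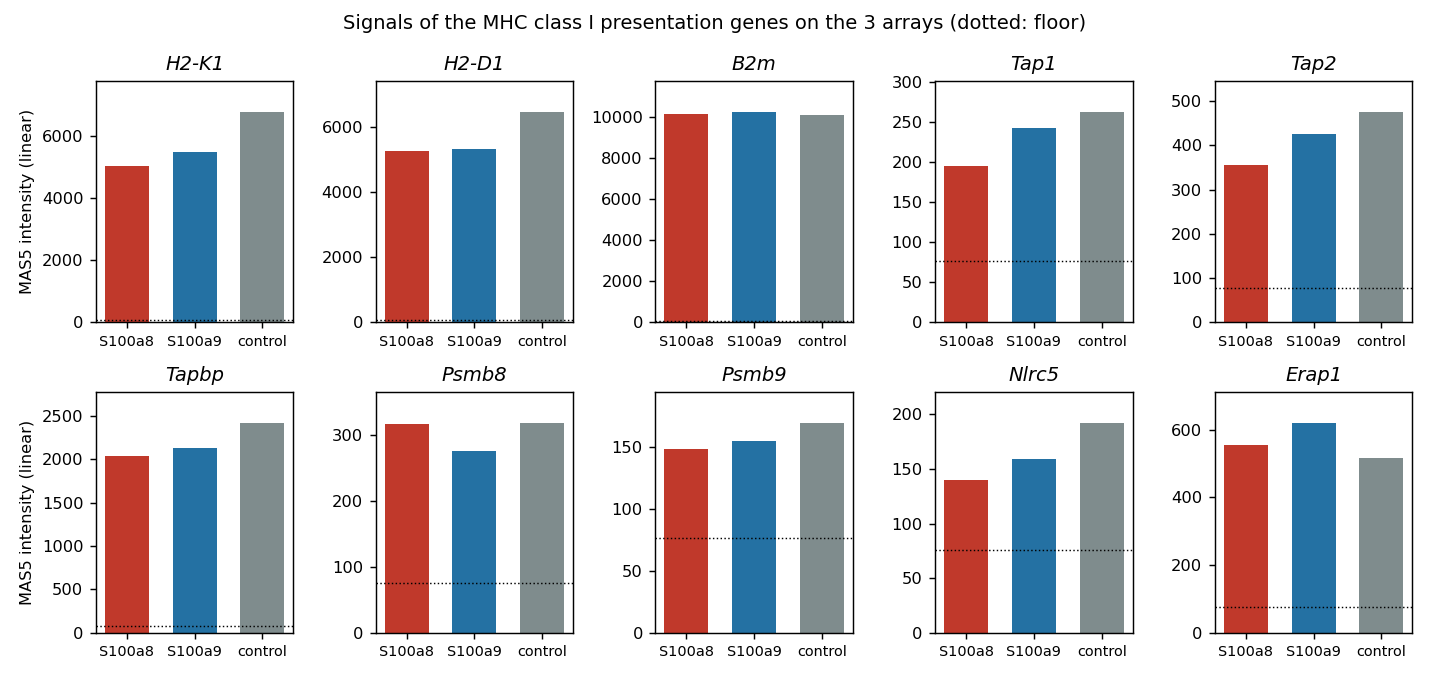
MAS5 intensity (linear, from 0) of each gene's brightest probe set on the S100a8, S100a9 and control arrays, 1 bar per array, each panel with its own scale and the floor of 76.2 dotted. The control bar is the tallest for 8 genes, B2m is level, and Erap1 is lowest in the control (555 with S100a8, 619 with S100a9, 517 in control cells).

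Among the chains, H2-K1, a classical heavy chain that presents peptides to CD8 T cells, had intensities of 5026 (S100a8), 5503 (S100a9) and 6765 (control). Both treated cultures lay below the control, with log2 ratios of -0.43 with S100a8 and -0.30 with S100a9. In its brightness class 1.83% of genes had a ratio to control as low with S100a8, and 3.13% with S100a9. H2-D1, the other classical heavy chain listed, had 5258 (S100a8), 5322 (S100a9) and 6439 (control). Its treated cultures were nearly equal to each other and both below the control, with log2 ratios of -0.29 with S100a8 and -0.27 with S100a9. As low a ratio was found for 5.9% of genes in its brightness class with S100a8 and 3.77% with S100a9. B2m gave 10115 (S100a8), 10198 (S100a9) and 10067 (control), log2 ratios of 0.01 with S100a8 and 0.02 with S100a9. It was thus level on the 3 arrays, while the heavy chains it pairs with were 1.21-fold to 1.35-fold below control. The second B2m probe set was as flat, with 8675 (S100a8), 8808 (S100a9) and 8687 (control).

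The heavy chains were measured by several probe sets each, which gives a technical check within the same RNA. For H2-K1 all 4 probe sets lay above the floor, and for H2-D1 7 of 9. All 11 were below control with S100a8 and all 11 with S100a9. Log2 ratios of the H2-K1 probe sets ran from -0.43 to -0.13 with S100a8 (SD 0.13 over 4 probe sets) and from -0.30 to -0.27 with S100a9 (SD 0.02). Those of H2-D1 ran from -0.60 to -0.26 with S100a8 (SD 0.12 over 7) and from -0.51 to -0.16 with S100a9 (SD 0.11). However, 10 of the 11 carry the ending _x_at, by which Affymetrix marks probe sets with probes that may also bind other transcripts. H2 class I genes are close copies of each other, so these 11 are not independent and may share signal between H2-K1, H2-D1 and related genes. The remaining one, 1426324_at of H2-D1, had intensities of 652 (S100a8), 696 (S100a9) and 991 (control). It was 1.52-fold below control with S100a8 and 1.42-fold with S100a9, the lowest ratios to control of any member probe set above the floor, and it was the 1 of 22 to pass 1.5-fold, with S100a8.

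**Figure D2:**
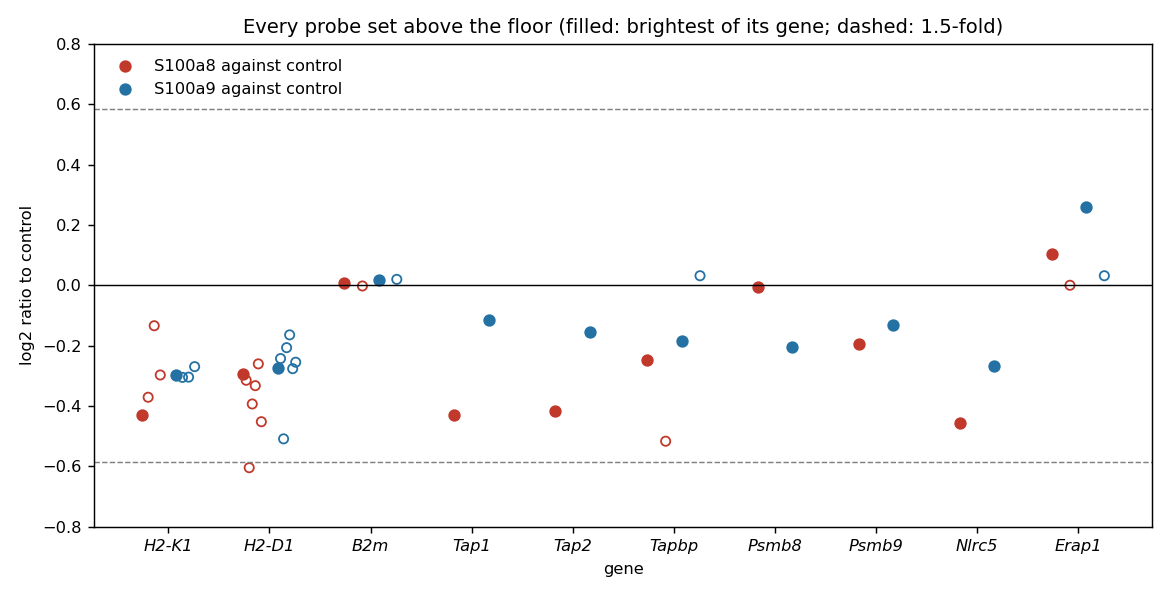
Log2 ratio to control of the 22 member probe sets whose mean lay above the floor, with S100a8 in red and S100a9 in blue; filled points are the brightest probe set of a gene and dashed lines mark 1.5-fold. All 11 heavy chain probe sets lie below 0 in both colours, B2m lies at 0, and the Tapbp probe sets disagree for S100a9.

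The peptide transporter genes were slightly below control with both proteins. With S100a8 Tap1 was 1.35-fold and Tap2 1.33-fold lower, and with S100a9 both were nearer to control. Tap1 had intensities of 195 (S100a8), 242 (S100a9) and 262 (control). Its log2 ratio to control was -0.43 with S100a8 and -0.11 with S100a9. The other 3 Tap1 probe sets lay under the floor and give no ratio. Tap2, the partner subunit, had 356 (S100a8), 426 (S100a9) and 475 (control), with log2 ratios of -0.42 with S100a8 and -0.15 with S100a9. Thus the S100a9 value lay closer to the control than to the S100a8 value for both subunits. Of the genes in their brightness class, 6.51% had a ratio as low as Tap1 with S100a8 and 6.94% as low as Tap2, against 26.9% (Tap1) and 19.7% (Tap2) with S100a9.

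Tapbp encodes tapasin, which bridges the transporter and the empty heavy chain. Its brighter probe set gave 2038 (S100a8), 2128 (S100a9) and 2418 (control), log2 ratios of -0.25 with S100a8 and -0.18 with S100a9. For this probe set 9.06% of genes in the brightness class were as low with S100a8 and 9.09% with S100a9. The dimmer one gave 326 (S100a8), 477 (S100a9) and 466 (control), log2 ratios of -0.52 with S100a8 and 0.03 with S100a9. Both were below control with S100a8, while with S100a9 they disagreed in direction, and the mean of both was -0.38 with S100a8 and -0.08 with S100a9. Erap1, the aminopeptidase that trims peptides to fit the groove, went the other way, with 555 (S100a8), 619 (S100a9) and 517 (control). Its log2 ratio was 0.10 with S100a8 and 0.26 with S100a9, and 94.1% of genes in its brightness class lay at or below its ratio with S100a9. Its second, dimmer probe set was level at 103 (S100a8), 105 (S100a9) and 103 (control), so the higher signal rests on 1 of 2 probe sets, and the mean of both was 0.15 with S100a9.

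With S100a8 the immunoproteasome genes lay nearer to control than the transporter genes, and with S100a9 they did not. Psmb8, the catalytic beta5i subunit, had 317 (S100a8), 277 (S100a9) and 318 (control). It was level with control after S100a8 (log2 ratio -0.01) and lower after S100a9 (-0.20). In its brightness class 52.0% of genes were as low with S100a8 and 14.2% with S100a9. The second Psmb8 probe set was under the floor. Psmb9, the beta1i subunit, had 148 (S100a8), 154 (S100a9) and 169 (control), with log2 ratios of -0.19 with S100a8 and -0.13 with S100a9. Of the genes in its brightness class, 13.8% were as low with S100a8 and 23.7% with S100a9. By brightest probe set, the transactivator gene Nlrc5 had the lowest ratio of the 10 genes with S100a8, with intensities of 140 (S100a8), 159 (S100a9) and 192 (control). Its log2 ratios were -0.45 with S100a8 and -0.27 with S100a9, and in the dimmest brightness class 3.95% of genes were as low with S100a8 and 9.24% with S100a9. Nlrc5 and Psmb9 rest on 1 dim probe set each.

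**Figure D3:**
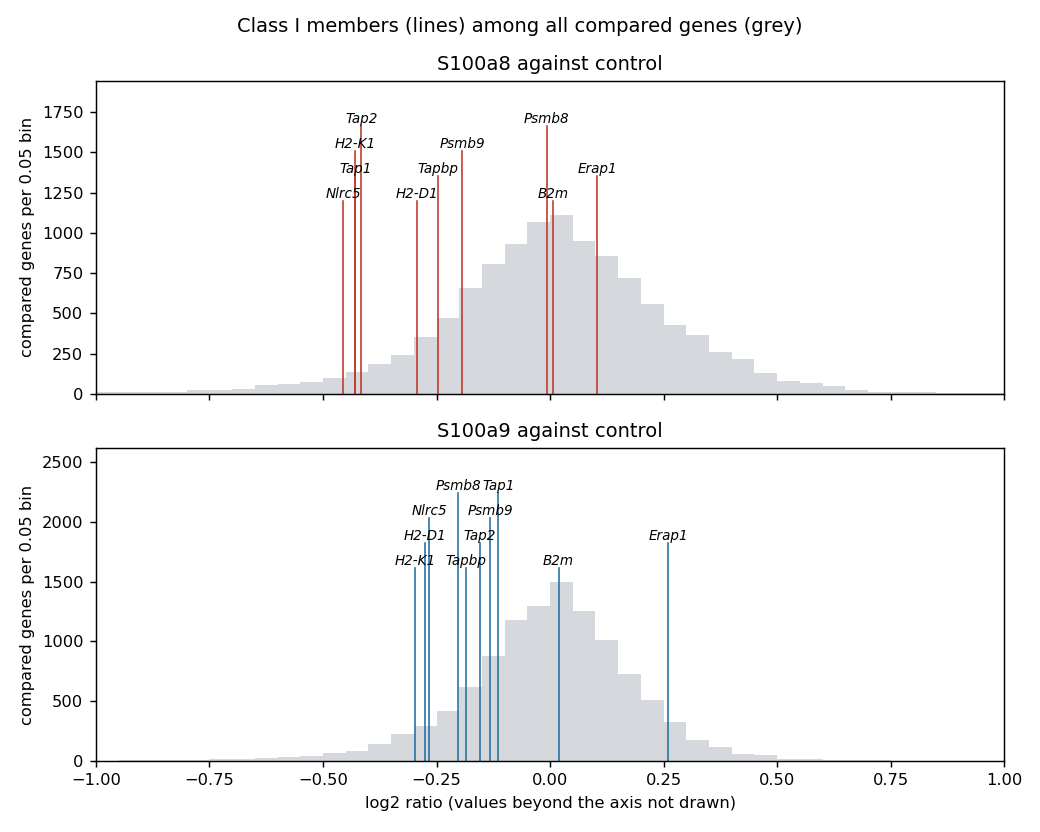
Number of compared genes (11128 in all) per bin of log2 ratio, in grey, for S100a8 against control (upper) and S100a9 against control (lower), with coloured lines at the 10 members. With S100a8 a group of 4 genes (Nlrc5, Tap1, H2-K1 and Tap2) lies between -0.45 and -0.42, and with S100a9 the 8 lower genes lie between -0.30 and -0.11.

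Between the proteins, S100a9 gave signals above S100a8 for 9 of 10 members, where 54.9% of compared genes were higher and 45.0% lower. The median log2 ratio of S100a9 against S100a8 was 0.10, against 0.02 for all compared genes. Tap1 (0.32) and Tap2 (0.26) had the highest ratios, and 97.8% and 95.6% of all compared genes lay at or below them. Psmb8 was the member below 0 (-0.20), and H2-D1 (0.02) and B2m (0.01) were level, just below 0 under median centring. No member passed 1.5-fold, that is, 0 in either direction, against 0.0988% of genes upward and 0.988% downward. Read from the brightest probe set, 7 members (H2-K1, H2-D1, Tap1, Tap2, Tapbp, Psmb9 and Nlrc5) had the lowest signal with S100a8, an intermediate one with S100a9 and the highest in the control, an order that 23.6% of compared genes had. Other probe sets of these genes did not all keep it. Of the 11 heavy chain probe sets above the floor, 9 were higher with S100a9 than with S100a8, whereas 1450534_x_at of H2-K1 (-0.17) and 1451784_x_at of H2-D1 (-0.02) were lower. The dimmer Tapbp probe set was above control with S100a9. For H2-K1 the ratio of S100a9 against S100a8 was 0.13 in the brightest probe set and 0.01 in the mean log2 of all 4. How far these steps exceed the difference between cultures treated alike cannot be read from single arrays.

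Other genes of the pathway followed the members only in part. Of the other class I and class I-like heavy chains, 10 of 22 listed had a probe set with 1 symbol and 7 were compared. With S100a8 4 were below control and 3 above (median log2 ratio -0.05), and with S100a9 2 were below and 5 above (0.09). Of all compared genes, 47.5% were below control and 52.5% above with S100a8. With S100a9 these shares were 48.0% below and 51.2% above. Fcgrt, the neonatal Fc receptor, had 601 (S100a8), 662 (S100a9) and 674 (control). On dim signals, H2-Q10 had 242 (S100a8), 167 (S100a9) and 155 (control) and H2-T3 246 (S100a8), 181 (S100a9) and 161 (control). Their log2 ratios with S100a8, 0.64 and 0.61, were the 2 of that list past 1.5-fold, a size that 1.13% of compared genes reached upward. H2-M9, the MAIT cell ligand Mr1 and the iron regulator Hfe lay between -0.09 and 0.12 with either protein.

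The chaperones and enzymes that serve class I folding were near control, with medians of -0.04 with S100a8 (5 of 9 lower) and -0.02 with S100a9 (5 of 9 lower). Of all compared genes, 47.5% were lower with S100a8 and 48.0% with S100a9. Calr, calreticulin, had log2 ratios of 0.01 with S100a8 and 0.05 with S100a9. Pdia3, a disulphide isomerase of the loading complex, was at -0.20 with S100a8 and -0.13 with S100a9, and its relative Pdia6 at -0.24 with S100a8 and -0.13 with S100a9. The folding sensor Uggt1 was at -0.28 with S100a8 and 0.01 with S100a9. Tapbpl, a tapasin relative that edits peptides, was at 0.17 with S100a8 and 0.06 with S100a9, and Ganab, a subunit of glucosidase II, at 0.37 with S100a8 and -0.02 with S100a9.

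The listed proteasome catalytic subunits and activators, which include the immunoproteasome subunit Psmb10, had small ratios in both directions. Of 7 compared, 5 were above control with S100a8 (median 0.10), where 52.5% of all compared genes were, and 4 with S100a9 (median 0.09), where 51.2% were. Psmb5, the standard subunit that Psmb8 replaces, had 4429 (S100a8), 4410 (S100a9) and 3966 (control), log2 ratios of 0.16 with S100a8 and 0.15 with S100a9. Psmb10 itself had 836 (S100a8), 916 (S100a9) and 1001 (control), log2 ratios of -0.26 with S100a8 and -0.13 with S100a9. Psme1, of the interferon-inducible activator, was at -0.09 with S100a8 and -0.02 with S100a9. Psme3, of the nuclear activator, was at 0.23 with S100a8 and 0.24 with S100a9.

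Genes that regulate class I expression were mostly below control. Of 20 compared regulators, 17 were lower with S100a8 (median -0.20, 2 of them by at least 1.5-fold) and 14 with S100a9 (median -0.08, 1 by at least 1.5-fold). The shares over all compared genes were 47.5% lower with S100a8 (1.91% by at least 1.5-fold) and 48.0% with S100a9 (0.854% by that size). Irf1, an interferon-induced activator of class I and immunoproteasome genes, had 688 (S100a8), 728 (S100a9) and 1012 (control). Its log2 ratios were -0.56 with S100a8 and -0.48 with S100a9. Ifngr2, a chain of the interferon gamma receptor, had 318 (S100a8), 338 (S100a9) and 539 (control), log2 ratios of -0.76 with S100a8 and -0.67 with S100a9. Stat2, which carries type I interferon signals, had 104 (S100a8), 146 (S100a9) and 186 (control), log2 ratios of -0.84 with S100a8 and -0.35 with S100a9. At the upper end, the kinase gene Jak1 was at 0.04 with S100a8 and 0.16 with S100a9, the receptor gene Ifnar2 at 0.04 with S100a8 and -0.01 with S100a9, and the feedback inhibitor Socs1 at 0.01 with S100a8 and 0.14 with S100a9.

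The interferon-stimulated genes had a lower median than the class I members. Of 29 listed, 26 had a probe set with 1 symbol and 24 were compared. All 24 were below control with S100a8 (median -0.75, 14 by at least 1.5-fold) and 20 with S100a9 (median -0.39, 4 by at least 1.5-fold). Of all compared genes, 47.5% were lower with S100a8 (1.91% by at least 1.5-fold) and 48.0% with S100a9 (0.854% by that size). The lowest were the chemokine gene Cxcl10 at -1.69 with S100a8 and -1.50 with S100a9, the ADP-ribosyltransferase gene Parp14 at -1.44 with S100a8 and -0.78 with S100a9, and the antiviral Rsad2 at -1.26 with S100a8 and -1.05 with S100a9. The highest with S100a8 were Cmpk2 (-0.01) and Ifit2 (-0.06), and with S100a9 Dhx58 (0.16) and Irf7 (0.08). The list was assembled with earlier results of these arrays known, so its direction is no independent evidence.

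**Figure D4:**
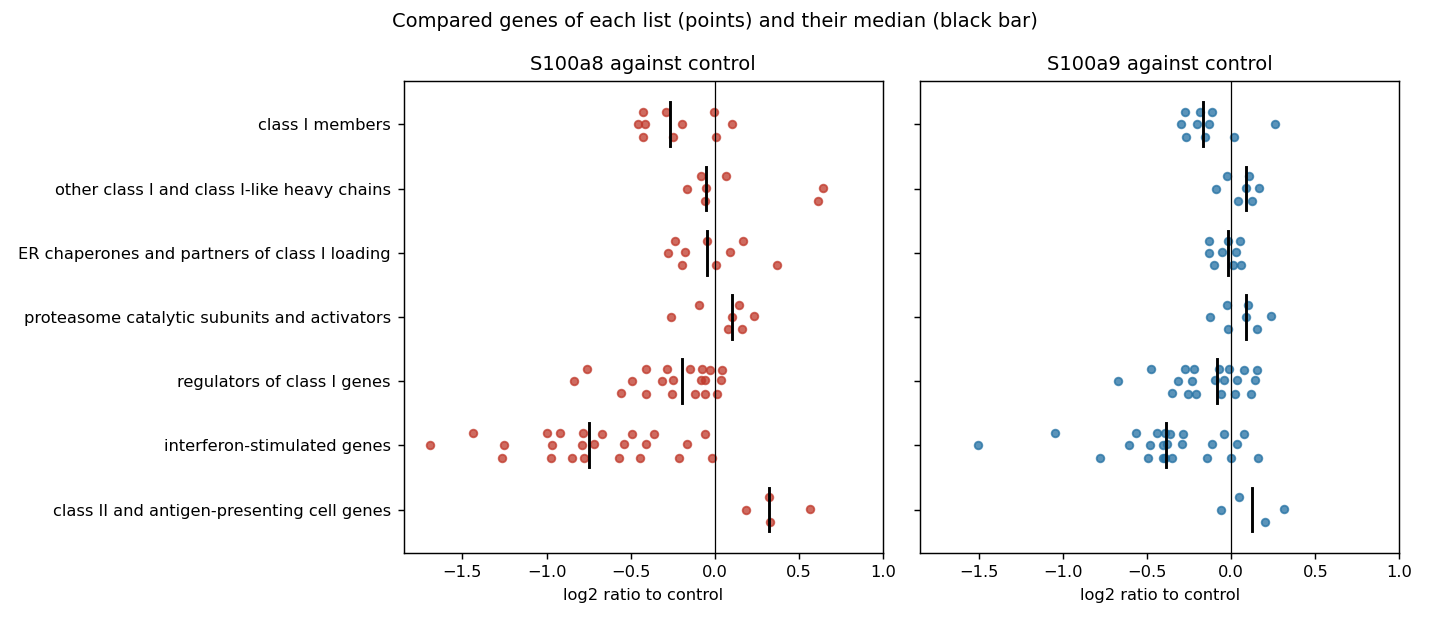
Log2 ratio to control of every compared gene in the class I members and in 6 lists of related genes, S100a8 on the left and S100a9 on the right, with black bars at the medians. The interferon-stimulated genes have the lowest medians (-0.75 with S100a8, -0.39 with S100a9), and the class I members follow (-0.27 with S100a8, -0.17 with S100a9). The few class II genes above the floor lie above 0 with S100a8, on dim signals.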

How the data were processed

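The 3 arrays were read from the deposited table of 45101 probe sets. The deposited intensities come from MAS5, as the submitters' processing notes state. The sources used here do not give its version or scaling target. The method subtracts mismatch signal, so dim values are noisy, and a common array scale hides changes in total RNA. Groups came from the labelled agent. Genes were named from the platform annotation, which can be old. Probe sets with several symbols (932) gave no gene value, and RefSeq changed 0 member symbols.

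Values under the floor (50th percentile, 76.2) were set to it, and log2 ratios were computed here in Python 3.11.15 with pandas 2.3.3. The gene's probe set and the filter used the mean before the floor. The scripts were tested on simulated data. With 1 array per group nothing was tested, and the number of arrays limits every value. Members, lists and sizes were chosen with earlier results of these data known. Besides the members, the text names per list the 2 highest and 2 lowest compared genes against control with each protein. It also names list markers and the 5 genes nearest to the members' medians. Krt18, Cd68, Cd14, Cd3e and Col1a2 were picked as examples after their values were seen. A comparison of member proteins that had been planned was not made. As alternatives, arrays were centred on their medians or quantile normalized, the floor was set to the 30th or 65th percentile or replaced by log2(value + 1), the filter was dropped, the log2 values of a gene's probe sets were averaged or those lacking an _x_at or _s_at ending preferred, and a 2-fold size was used.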

Additional observations from a re-analysis of the deposited data

How the results depend on the processing

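The median log2 ratio of the class I members kept its direction under the 8 alternatives that change values, from -0.33 to -0.22 for S100a8 against control, from -0.17 to -0.14 for S100a9 against control and from 0.05 to 0.11 for S100a9 against S100a8. The count of members at least 1.5-fold lower with S100a8, 0 as reported, was 1 when probe sets without _x_at or _s_at endings were taken first. That gene was H2-D1, then read from its _at probe set, at -0.60 with S100a8 and -0.51 with S100a9. Members past 1.5-fold stayed at 0 in every other comparison and setting, as did those past 2-fold. The counts that follow include the settings that could not change a member's value. Single members kept their sign in 76 of 78 values for S100a8, 78 of 78 for S100a9 and 75 of 78 for S100a9 against S100a8. The exceptions were Psmb8 with S100a8 (up to 0.05) and, between the proteins, H2-D1 (down to -0.01), B2m (down to -0.02) and Psmb9 (0.00 with the floor at the 65th percentile, which replaced both of its treated values). Sizes moved by at least 0.1 on the log2 scale in 4 values for S100a8, 3 for S100a9 and 3 for S100a9 against S100a8. With the mean log2 of all probe sets, H2-K1 was at -0.31 with S100a8 and at 0.01 between the proteins, Tapbp at -0.38 with S100a8, -0.08 with S100a9 and 0.31 between the proteins, and Erap1 at 0.15 with S100a9. Under that setting 8 members were compared, since the mean log2 of Tap1 and of Psmb8, taken before the floor, lay under it. With the floor at the 65th percentile Nlrc5 was at -0.31 with S100a8 and 0.05 between the proteins, since its S100a8 value was replaced by that floor. No paired analysis was possible because each group holds 1 array.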

Other observations

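Class II genes, which antigen-presenting leukocytes use to show peptides to CD4 T cells, were near or under the floor. Of 10 measured genes of that list, 5 lay under the floor on each array (H2-Aa, H2-Ab1, H2-DMa, H2-Ob and Ciita, the class II transactivator), and 4 were compared. All 4 were above control with S100a8 (median log2 ratio 0.32) and 3 with S100a9 (0.12), on dim signals. Of all compared genes, 52.5% were above control with S100a8 and 51.2% with S100a9. H2-Eb1, Ctss and Cd74 lie in the dimmest brightness class, where the median log2 ratio of all genes with S100a8 was 0.14. H2-Eb1, a class II beta chain, had 119 (S100a8), 100.3 (S100a9) and 80.6 (control), and H2-DMb2 had 229 (S100a8), 188 (S100a9) and 183 (control). Ctss, a lysosomal protease, had 105 (S100a8), 80.5 (S100a9) and 83.8 (control), and the invariant chain Cd74 92.1 (S100a8), 93.2 (S100a9) and 81.1 (control). The summed signal of the list was 854 (S100a8), 753 (S100a9) and 734 (control).

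A further 3 probe sets carry several gene symbols, a member's among them, and were left out above because their gene cannot be assigned. One lay under the floor on each array. Another, 1424948_x_at, had 2150 (S100a8), 2435 (S100a9) and 3079 (control), log2 ratios of -0.52 with S100a8 and -0.34 with S100a9. The last, 1451593_at, had 153 (S100a8), 182 (S100a9) and 325 (control), log2 ratios of -1.09 with S100a8 and -0.83 with S100a9, which is lower than any member probe set above the floor.

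Among 2778 bright genes outside the members, the 5 whose log2 ratios to control lay nearest to the members' medians were Klhdc3, Ckap2, Hspa4l, Eif2a and Hmga2. Their distances were 0.0016, 0.0033, 0.0086, 0.0094 and 0.011 on the log2 scale, over 3 arrays. So short a pattern is met by many genes, and none of the 5 is named here for its function.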
